A study of Homo sapiens with 12 samples.

Results

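H19 and 9 other imprinted genes (IGF2, CDKN1C, KCNQ1OT1, PHLDA2, PEG10, MEST, MEG3, PLAGL1 and GRB10) were followed across 12 messenger RNA libraries of HCT116, an established human colorectal carcinoma line. H19 was chosen by its FPKM with doxorubicin against PBS in this same table, where its rise stood out. The other 9 were chosen as well-known imprinted genes, with results of this table already known. All 10 have a locus among the 57908 loci of the table. The loci of H19, CDKN1C, KCNQ1OT1, PHLDA2, PEG10, MEST and GRB10 carry only the gene's own name. IGF2 shares its locus with AC132217.1, INS and INS-IGF2. PLAGL1 shares its locus with HYMAI, and MEG3 with AL117190.1, MEG8, SNORD113, SNORD113-4 and SNORD114-26. Values of these 3 loci belong to the whole locus.

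Cells received an NSE4A-flag plasmid (NSE4 cells; the gene is NSMCE4A), an SMC5-flag plasmid (SMC5 cells) or a control plasmid (GFP cells, called GFP in the sample titles and vector in the design text). NSE4A and SMC5 are subunits of the SMC5/6 complex, a ring-shaped ATPase of DNA repair. The transfected cells were split 24 h later and kept for 24 h with 1000 nM doxorubicin, an anthracycline that traps topoisomerase II on DNA, or with PBS. The doxorubicin-treated groups are called NSE4-DOX, SMC5-DOX and GFP-DOX, and the PBS groups NSE4, SMC5 and GFP. The genotype labels read NSE4 overexpression, SMC5 overexpression and, for GFP cells, WT. Each of the 6 groups has 2 libraries of the same line, and the sources do not say whether they came from separate cultures. P-values therefore reflect no more than the library-to-library spread, part or all of which can be technical. The study asked how SMC5/6 acts on growth and on death after doxorubicin.

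Imprinted genes are transcribed mainly from the copy inherited from 1 parent, a choice set by DNA methylation laid down in the egg or sperm. H19 is a long noncoding RNA made from the maternal copy, and its neighbour IGF2, a fetal growth factor, is made from the paternal copy. At their shared control region the insulator protein CTCF binds the unmethylated maternal copy and keeps downstream enhancers from IGF2. H19 is abundant in the fetus, falls after birth in most tissues and is often high again in tumours. The libraries hold no allele information, so nothing below tells maternal from paternal transcripts.

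The value is FPKM, fragments per kilobase of transcript and per M mapped fragments, which allows levels to be compared between genes. The 2 SMC5-DOX columns held 1091 identical values above 0, against 0 in every other pair of replicates, and a Pearson r of 0.999, against 0.987 to 0.988. They were averaged and counted as 1 sample, which leaves 5 doxorubicin and 6 PBS samples. Depth, estimated from the spacing of low values, was 13.5 to 20.1 M fragments. NSMCE4A read 4069 to 6287 FPKM in the NSE4-DOX and NSE4 libraries. It read 68.7 to 89.4 in the GFP-DOX and GFP libraries and less, 32.6 to 43.1, in the SMC5-DOX and SMC5 samples. SMC5 read 811 to 979 FPKM in the SMC5-DOX and SMC5 samples, against 7.02 to 34.4 elsewhere. CDKN1A, the p53 target that serves as the check of the drug, had 906 to 1118 FPKM with doxorubicin and 292 to 359 with PBS. Summed epithelial markers ranged from 2048 to 2355 FPKM with doxorubicin and from 1973 to 2228 with PBS, a sum made mostly of KRT8 and KRT18. Of the 6 tested, KRT8 (log2 difference 0.34) and VIL1 (1.35) rose and KRT18 (−0.59) and EPCAM (−0.13) fell, averaged over the 3 backgrounds. These calls are at a limma adjusted p of at most 0.05, with 0.0492 for EPCAM. Over all loci tested, 28% rose and 23.6% fell. VIL1 stayed at or below 0.141 FPKM with PBS and passed the filter on low values only through doxorubicin samples. Its call thus rests on the group where it is high. The part of these markers in the results below was not tested. All 3 leukocyte, 2 endothelial and 4 trophoblast marker loci used stayed under 1 FPKM in every sample. Of 5 mesenchymal marker loci, COL1A2, COL3A1 and DCN stayed under 1 FPKM, while the list summed to 16.1 to 27.9 FPKM with doxorubicin and 18.0 to 25.6 with PBS. Most of that sum was COL1A1, with 15.6 to 27.0 FPKM with doxorubicin and 17.7 to 25.2 with PBS. PDGFRB read 0.424 to 1.21 FPKM with doxorubicin and 0.0131 to 0.158 with PBS, and was not tested.

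Both H19 and MEST carry a microRNA inside the gene. These mature microRNAs were not measured in this table, and they are shown because the transcripts of the 2 genes hold their precursors. The sequences are from RefSeq (GRCh38.p14), and capitals mark the seed, bases 2 to 8, with which a microRNA pairs to its targets. The H19 pair lies on the minus strand, at chr11:1996800-1996822 and chr11:1996768-1996787, inside an exon in 4 of the 5 H19 transcripts that span it. The MEST pair lies on the plus strand, at chr7:130496126-130496148 and chr7:130496162-130496183, in an intron of all 13 MEST transcripts that span it. The 4 seeds all differ.
hsa-miR-675-5p: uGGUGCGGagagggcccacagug
hsa-miR-675-3p: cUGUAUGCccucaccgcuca
hsa-miR-335-5p: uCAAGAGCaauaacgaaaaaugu
hsa-miR-335-3p: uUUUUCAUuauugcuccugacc

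An H19 promoter window is shown because H19 had the largest log2 difference of the 8 members above the filter on low values. Only 1 H19 window was at hand. Any other start site of the gene was not searched, so what follows holds for this window alone. The window is chr11:2001217-2001516 on the minus strand (RefSeq, GRCh38.p14), with 250 bases before the start site in lower case and the first 50 transcribed bases in capitals.
H19 promoter: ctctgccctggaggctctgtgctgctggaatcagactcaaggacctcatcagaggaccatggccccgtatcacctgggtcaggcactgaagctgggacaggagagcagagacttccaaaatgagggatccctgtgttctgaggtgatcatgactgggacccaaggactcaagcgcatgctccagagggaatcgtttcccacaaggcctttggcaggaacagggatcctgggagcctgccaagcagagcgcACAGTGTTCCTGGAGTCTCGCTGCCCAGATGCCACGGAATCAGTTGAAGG
It holds 6 CpG dinucleotides at a GC content of 57.7%, against a median of 14 CpG over all 35116 promoter windows of that length. A search of both strands found no match to any of 4 motifs. These were the p53 half-site (in 6.63% of all windows), GGGCGG (45.0%), TATAAA (11.5%) and the E-box CACGTG (7.26%). Windows were also at hand for MEST, GRB10, PLAGL1 and MEG3. GGGCGG, the GC box of Sp1, was in 2 of 5 windows of each of MEST, GRB10 and PLAGL1, and the p53 half-site in none of these 4 genes' windows. A missing match says only that these letters are not in the window.

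H19 was low in every PBS library and high in every doxorubicin library. It read 152 and 134 FPKM in NSE4-DOX cells, against 3.58 and 5.43 FPKM in NSE4 cells. In SMC5-DOX cells its mean was 130.0 FPKM, from columns of 119.9 and 140.1 that may be the same library, against 3.88 and 3.79 FPKM in SMC5 cells. It read 118 and 129 FPKM in GFP-DOX cells, against 4.44 and 5.69 FPKM in GFP cells. The lowest doxorubicin value, 118 FPKM, lay far above the highest PBS value, 5.69 FPKM. Averages were 133 ± 12.3 FPKM over the 5 doxorubicin samples and 4.47 ± 0.896 FPKM over the 6 PBS samples (SD), a ratio of 29.7. The ratio of group means was 31.7 in NSE4 cells, 33.9 in SMC5 cells and 24.4 in GFP cells. On the log2(FPKM + 1) scale used for tests, which understates changes of low genes, the differences were 4.73, 4.76 and 4.37. These values chose H19, so no test is given for them. Among the 12858 loci with a single gene name, H19's log2 difference had rank 3 in NSE4 cells, 9 in SMC5 cells and 7 in GFP cells. In bulk RNA, fewer cells with a transcript and less of it per cell cannot be told apart, here and for every gene below.

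**Figure D1:**
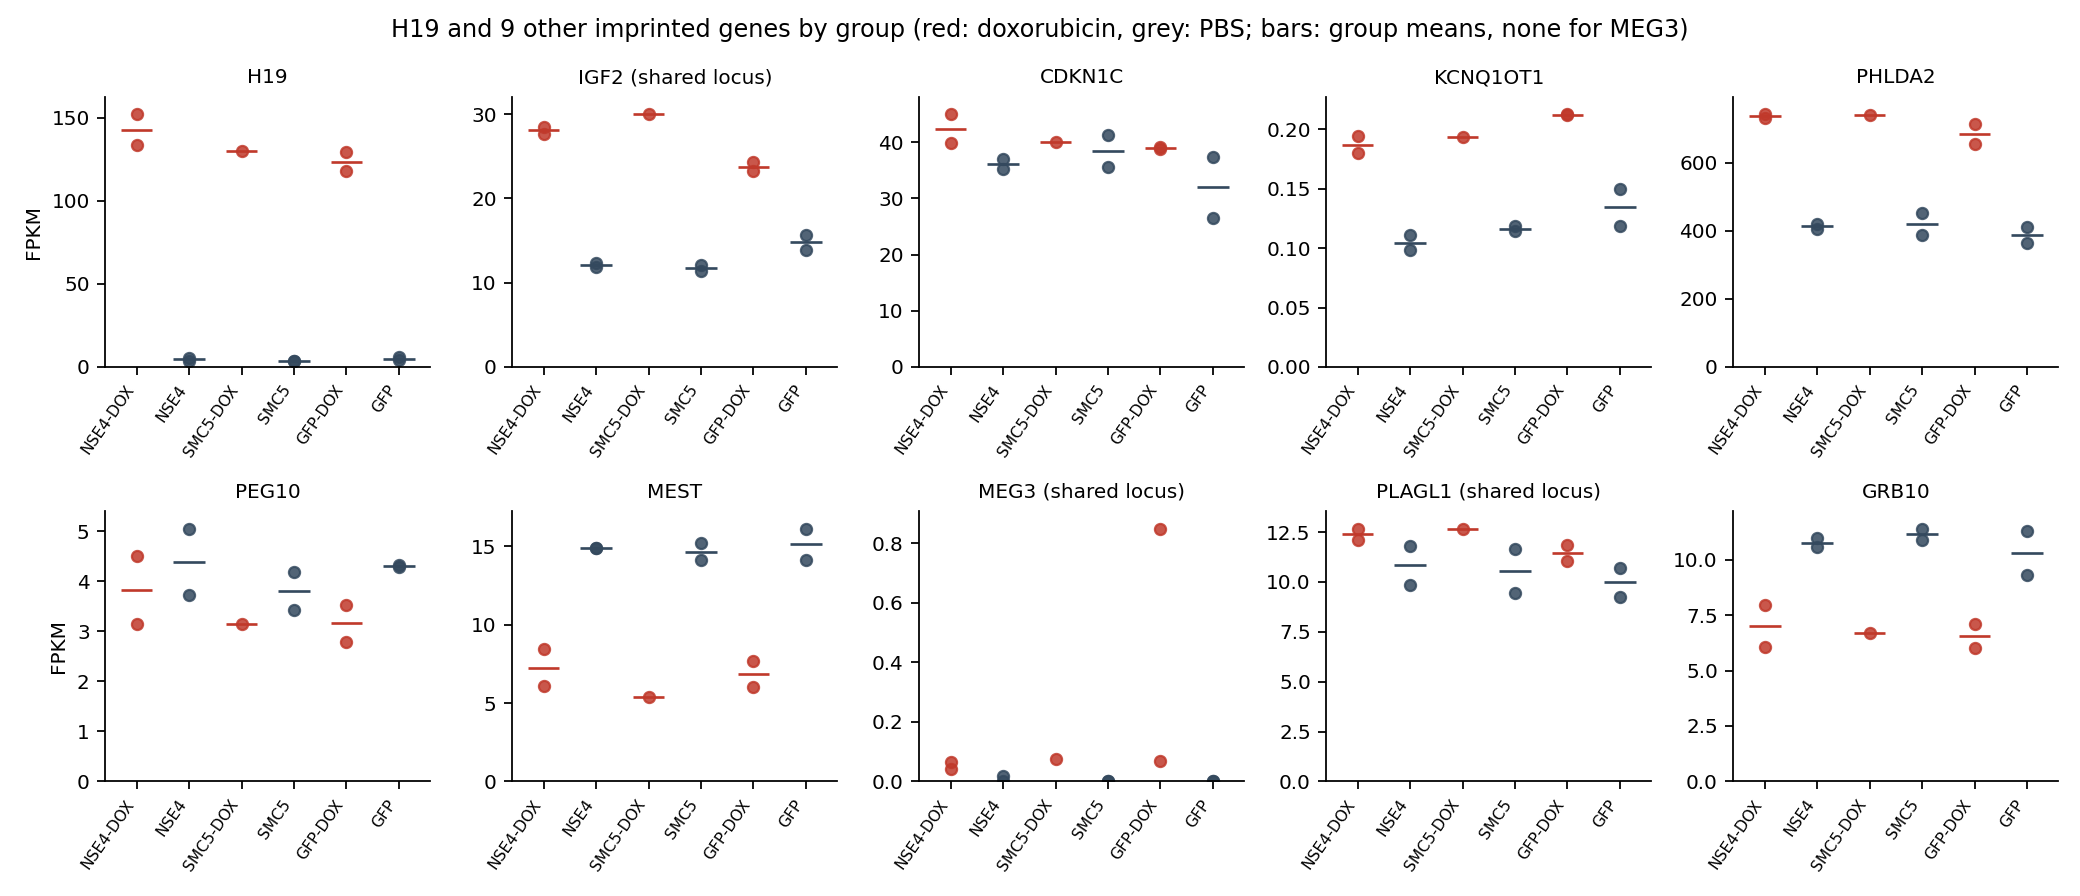
FPKM (y axis, linear from 0, a separate scale per panel) of the 10 genes in the 6 groups. Red points are doxorubicin samples, grey points PBS samples, and bars are group means. SMC5-DOX is 1 point, the mean of its 2 columns. H19 sits between 118 and 152 FPKM in all 5 doxorubicin samples and between 3.58 and 5.69 in all 6 PBS samples.

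The doxorubicin groups averaged 143 ± 13.1 FPKM of H19 in NSE4-DOX, 130.0 in SMC5-DOX and 124 ± 7.72 in GFP-DOX cells (SD, n = 2, 1 and 2). Among the PBS groups H19 averaged 4.50 ± 1.31 FPKM in NSE4, 3.84 ± 0.0621 in SMC5 and 5.07 ± 0.883 in GFP cells (SD, n = 2 each). The plasmid differences were not used to choose H19 and were tested with limma, 1 fit over the 6 groups and 15833 loci with at least 1 FPKM in at least 2 samples. With doxorubicin, the NSE4 plasmid differed from GFP by 0.21 log2 (95% interval −0.19 to 0.60) and the SMC5 plasmid by 0.07 (−0.41 to 0.56). With PBS the differences were −0.15 (−0.55 to 0.24) for NSE4 and −0.32 (−0.72 to 0.08) for SMC5. All 4 had an adjusted p of 1 in limma, and these intervals leave room for differences of about the size of the spread between replicates.

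The place of H19 among the 10 genes differed with doxorubicin. By FPKM it was the second highest in every doxorubicin sample, below PHLDA2, and in place 7 or 8 in every PBS sample. The FPKM of H19 was 4.33 to 5.56 times that of the IGF2 locus in doxorubicin samples and 0.283 to 0.460 times in PBS samples.

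Of the other 9 genes 7 passed the filter on low values, and KCNQ1OT1 and MEG3 did not. Rises and falls below are at an adjusted p of at most 0.05 in limma, adjusted over all 15833 loci. Averaged over the 3 backgrounds, IGF2 and PHLDA2 rose with doxorubicin and MEST and GRB10 fell, and the same 4 genes were called in the same direction in each background. The share of all loci called was 51.6% in the averaged comparison (28% rose and 23.6% fell). It was 30.2% in NSE4 cells (16.3% rose and 13.9% fell), 20.9% in SMC5 cells (11% and 9.87%) and 31.1% in GFP cells (17% and 14.1%). So a call alone sets none of these genes apart from the rest. The median log2 difference of the 7 genes was 0.20, against 0.03 over all loci.

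IGF2, the fetal growth factor next to H19, rose with doxorubicin in all 3 backgrounds. Its locus read 27.6 and 28.5 FPKM in NSE4-DOX cells, against 12.4 and 11.8 FPKM in NSE4 cells. It read 30.0 FPKM in SMC5-DOX cells, against 11.4 and 12.1 FPKM in SMC5 cells. It read 24.3 and 23.2 FPKM in GFP-DOX cells, against 15.7 and 13.9 FPKM in GFP cells. No doxorubicin value overlapped a PBS value, and GFP-DOX and GFP lay closest together. Of all loci tested, 22% likewise had every doxorubicin sample above every PBS sample. The ratio of means was 2.32 in NSE4 cells, 2.55 in SMC5 cells and 1.61 in GFP cells. The log2 difference was 1.15 ± 0.099 (SE) in NSE4 cells (limma adjusted p = 1.57e-04), 1.28 ± 0.12 in SMC5 cells (4.89e-04) and 0.65 ± 0.099 in GFP cells (0.00209).

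IGF2 was also the only one of the 8 genes tested with an unadjusted p under 0.05 in any plasmid comparison. Its log2 difference from GFP-DOX was 0.23 in NSE4-DOX and 0.32 in SMC5-DOX cells, and from GFP it was −0.27 in NSE4 and −0.31 in SMC5 cells. The doxorubicin difference exceeded that of GFP cells by 0.50 (95% interval 0.18 to 0.82) in NSE4 cells and by 0.63 (0.27 to 0.99) in SMC5 cells, in limma. The unadjusted p-values of these interactions were 0.00673 and 0.00351 in limma, and both adjusted p-values were 1, so neither passed. The share of loci called was 0.0316% in the NSE4 interaction and 0.0189% in the SMC5 interaction. It was 0.0568% for the NSE4 plasmid and 0.0316% for the SMC5 plasmid with doxorubicin, and 0.0442% and 0% with PBS. None of the members tested was called in these 6 comparisons, with 1 unadjusted p under 0.05 in each, that of IGF2. The 6 comparisons share the GFP libraries or the treated plasmid libraries, so they are not independent of each other.

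**Figure D2:**
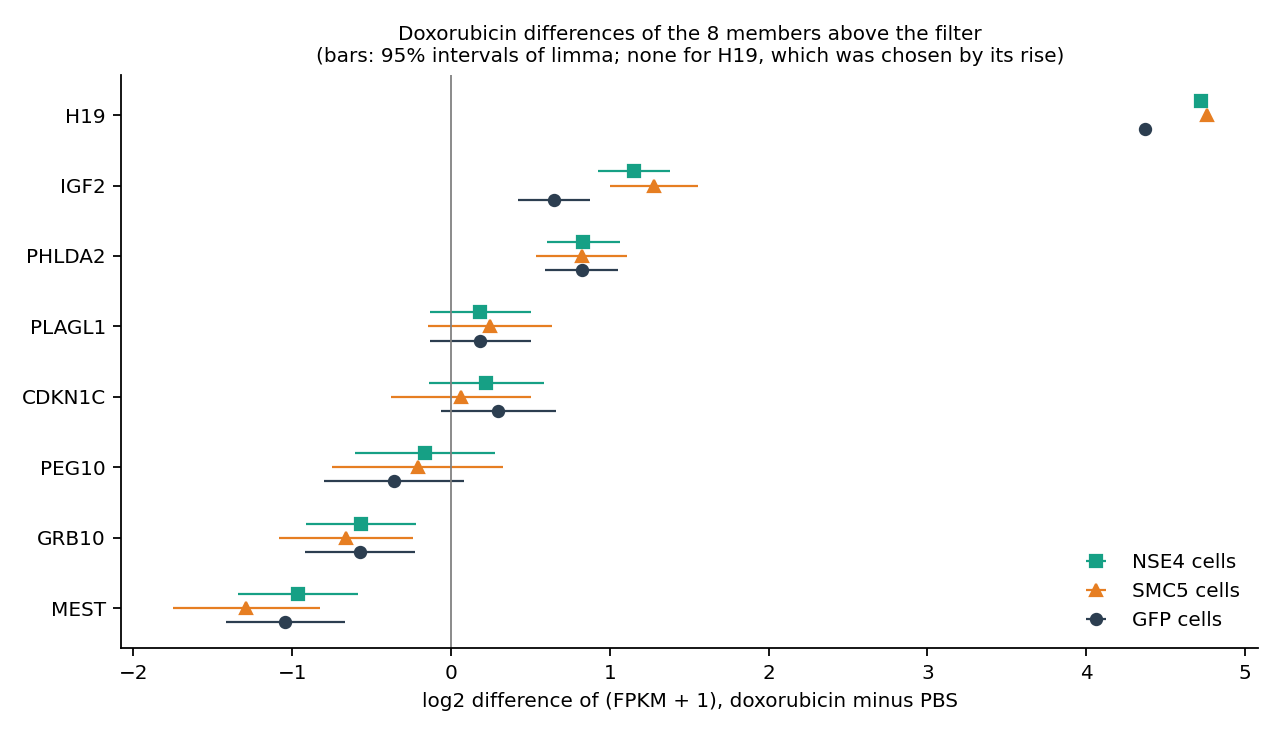
Log2 differences of FPKM + 1, doxorubicin minus PBS (x axis), of H19 and the 7 other genes above the filter (rows) in NSE4 (squares), SMC5 (triangles) and GFP cells (circles). Bars are 95% limma intervals, left out for H19. IGF2 and PHLDA2 lie right of 0 and GRB10 and MEST left of 0 in all 3 backgrounds, while the intervals of PLAGL1, CDKN1C and PEG10 reach across 0.

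PHLDA2, a maternally expressed gene that restrains growth of the placenta, was the most abundant of the 10 and rose in each background. It read 730.4 and 743 FPKM in NSE4-DOX cells, against 405 and 421 FPKM in NSE4 cells. It read 741 FPKM in SMC5-DOX cells, against 388 and 452 FPKM in SMC5 cells. It read 714 and 656 FPKM in GFP-DOX cells, against 364 and 410.4 FPKM in GFP cells. The 3 backgrounds gave nearly the same ratio of means, 1.78, 1.76 and 1.77. The log2 difference averaged over backgrounds was 0.83 ± 0.063 (SE; limma adjusted p = 2.11e-05).

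CDKN1C, which encodes the maternally expressed cell cycle inhibitor p57 and lies close to PHLDA2, was not called. It read 39.8 and 45.0 FPKM in NSE4-DOX cells, against 37.0 and 35.2 FPKM in NSE4 cells. It read 40.1 FPKM in SMC5-DOX cells, against 35.6 and 41.3 FPKM in SMC5 cells. It read 39.2 and 38.8 FPKM in GFP-DOX cells, against 26.5 and 37.4 FPKM in GFP cells. Treated and PBS values overlapped in SMC5 cells, and the lowest value of all, 26.5 FPKM, was 1 GFP library. The averaged log2 difference was 0.20 (95% interval −0.03 to 0.42; limma adjusted p = 0.13). Without GFP replicate 2 the averaged difference was 0.27 (adjusted p = 0.0205) and that in GFP cells 0.54 (0.0363), both called.

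KCNQ1OT1, the paternally expressed antisense RNA that silences the CDKN1C and PHLDA2 domain on the paternal copy, stayed under 1 FPKM. It read 0.180 and 0.194 FPKM in NSE4-DOX cells, against 0.111 and 0.0982 FPKM in NSE4 cells. It read 0.194 FPKM in SMC5-DOX cells, against 0.118 and 0.114 FPKM in SMC5 cells. It read 0.212 and 0.213 FPKM in GFP-DOX cells, against 0.119 and 0.150 FPKM in GFP cells. All 5 doxorubicin values lay above all 6 PBS values, with ratios of means of 1.79, 1.66 and 1.58. Among the 15833 loci tested, 22% had all doxorubicin samples above all PBS samples. KCNQ1OT1 is not among them, so that share is not the one for loci at its low level. Because the transcript is 91.7 kb long, these levels correspond to an estimated 232 to 349 fragments per doxorubicin library and 153 to 198 per PBS library. With no filter on low values the averaged log2 difference was 0.10 at a pseudocount of 1 (limma adjusted p = 0.0314) and 0.45 at a pseudocount of 0.1 (adjusted p = 0.0885), so the call depends on the pseudocount. KCNQ1OT1 lies inside KCNQ1 on the opposite strand. The sources do not say whether the libraries keep strand, so reads of KCNQ1 introns cannot be told apart from it.

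MEST, a paternally expressed hydrolase-like protein of mesoderm and the host of miR-335, fell in every background. It read 6.07 and 8.44 FPKM in NSE4-DOX cells, against 14.9 and 14.9 FPKM in NSE4 cells. It read 5.41 FPKM in SMC5-DOX cells, against 15.2 and 14.1 FPKM in SMC5 cells. It read 6.02 and 7.70 FPKM in GFP-DOX cells, against 16.1 and 14.1 FPKM in GFP cells. Treated means were 48.7%, 36.9% and 45.3% of the PBS means, with no overlap of treated and PBS samples. The share of all loci tested with every doxorubicin sample below every PBS sample was 18.6%. The averaged log2 difference was −1.10 ± 0.10 (SE; limma adjusted p = 5.99e-05).

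GRB10, an adaptor that dampens insulin and insulin-like growth factor receptor signalling, fell by less. It read 6.04 and 7.97 FPKM in NSE4-DOX cells, against 10.97 and 10.6 FPKM in NSE4 cells. It read 6.69 FPKM in SMC5-DOX cells, against 10.9 and 11.4 FPKM in SMC5 cells. It read 6.04 and 7.11 FPKM in GFP-DOX cells, against 11.3 and 9.31 FPKM in GFP cells. Treated means were 65.0%, 60.0% and 63.9% of the PBS means, again with no overlap. Among all loci tested, 18.6% had every doxorubicin sample below every PBS sample. The averaged log2 difference was −0.60 ± 0.094 (SE; limma adjusted p = 9.47e-04). In single backgrounds the adjusted p was 0.0236 in NSE4, 0.0383 in SMC5 and 0.0217 in GFP cells, and some of the other settings tried lost these calls, among them leaving out NSE4-DOX replicate 1 (0.133 in NSE4 cells) or GFP replicate 1 (0.126 in GFP cells).

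PEG10, a paternally expressed gene derived from a retrotransposon, and PLAGL1, a paternally expressed zinc finger protein that slows the cell cycle, were not called. PEG10 read 3.15 and 4.50 FPKM in NSE4-DOX, 3.14 in SMC5-DOX and 2.79 and 3.53 in GFP-DOX cells. It read 5.05 and 3.73 FPKM in NSE4, 4.18 and 3.42 in SMC5 and 4.29 and 4.33 in GFP cells. Its treated and PBS ranges overlapped, and the averaged log2 difference was −0.24 (95% interval −0.52 to 0.03; limma adjusted p = 0.122). The PLAGL1 locus read 12.7 and 12.1 FPKM in NSE4-DOX, 12.6 in SMC5-DOX and 11.1 and 11.8 in GFP-DOX cells. It read 9.85 and 11.8 FPKM in NSE4, 11.7 and 9.43 in SMC5 and 10.7 and 9.26 in GFP cells. Within each background the treated values lay above the PBS ones, but the 2 ranges over all backgrounds overlapped. The share of all loci so separated within each background, with 1 or 2 samples per group, was not counted. The averaged log2 difference was 0.20 (95% interval 0.01 to 0.40; limma adjusted p = 0.0780). It was called when SMC5 replicate 1 was left out (adjusted p = 0.0466) and when the 12 columns were treated as separate samples (0.0374).

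MEG3, a maternally expressed long noncoding RNA known to raise p53 levels, was barely detected. It read 0.0409 and 0.0647 FPKM in NSE4-DOX cells, against listed values of 0 and 0.0184 in NSE4 cells. It read 0.0744 FPKM in SMC5-DOX cells, with both SMC5 libraries listed at 0. It read 0.0683 and 0.850 FPKM in GFP-DOX cells, with both GFP libraries listed at 0. All 5 doxorubicin samples were above 0 and 5 of 6 PBS libraries were listed at 0, and 1 GFP-DOX library stood apart from the other treated samples. Doxorubicin libraries had more loci above 0 in general, 25194 to 26185, against 23635 to 24107 in PBS libraries. How many other loci near 0 were split in the same way was not counted. With no filter limma gave an averaged adjusted p of 0.270 at a pseudocount of 1 and 0.0917 at 0.1, so no difference was called.

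H19, IGF2, KCNQ1OT1, CDKN1C and PHLDA2 lie in the same imprinted region of chromosome 11. Of 14 neighbouring loci there that were tested, 5 rose and 4 fell in the averaged comparison, where 51.6% of all loci were called, with a median log2 difference of −0.12, against 0.03 over all loci. In single backgrounds 4 rose and 1 fell in NSE4 cells, 2 rose and 1 fell in SMC5 cells, and 3 rose and 2 fell in GFP cells, where 30.2%, 20.9% and 31.1% of all loci were called. The count in NSE4 cells was 3 without either NSE4-DOX library, and that in GFP cells was 3 without GFP replicate 1, GFP replicate 2 or GFP-DOX replicate 2. TNNI2, a fast muscle troponin that shares a locus with SYT8, averaged 6.99 ± 1.47 FPKM with doxorubicin and 0.523 ± 0.147 with PBS (SD, n = 5 and 6), a log2 difference of 2.39 (limma adjusted p = 2.71e-06). KCNQ1, the potassium channel gene that holds KCNQ1OT1 on its other strand, averaged 1.52 ± 0.0824 FPKM with doxorubicin and 4.93 ± 0.639 with PBS (SD), a log2 difference of −1.23 (limma adjusted p = 3.36e-05). NAP1L4, a histone chaperone gene beyond PHLDA2, rose by 0.63 log2 at its main locus, and MRPL23-AS1, an antisense RNA next to H19, fell by 0.56. Among the loci that rose, those of TNNI2, LSP1 and IGF2-AS stayed under 1 FPKM in every PBS library. They passed the filter only through doxorubicin samples. MRPL23-AS1 stayed under 1 FPKM in every doxorubicin sample and passed only through PBS libraries. The counts of this list and the p-value of TNNI2 carry that selection. Along the region, loci that rose stood beside loci that fell. H19 and IGF2 were higher with doxorubicin, the MRPL23 locus on the other side of H19 had −0.31, and KCNQ1 had the lowest value, at −1.23.

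**Figure D3:**
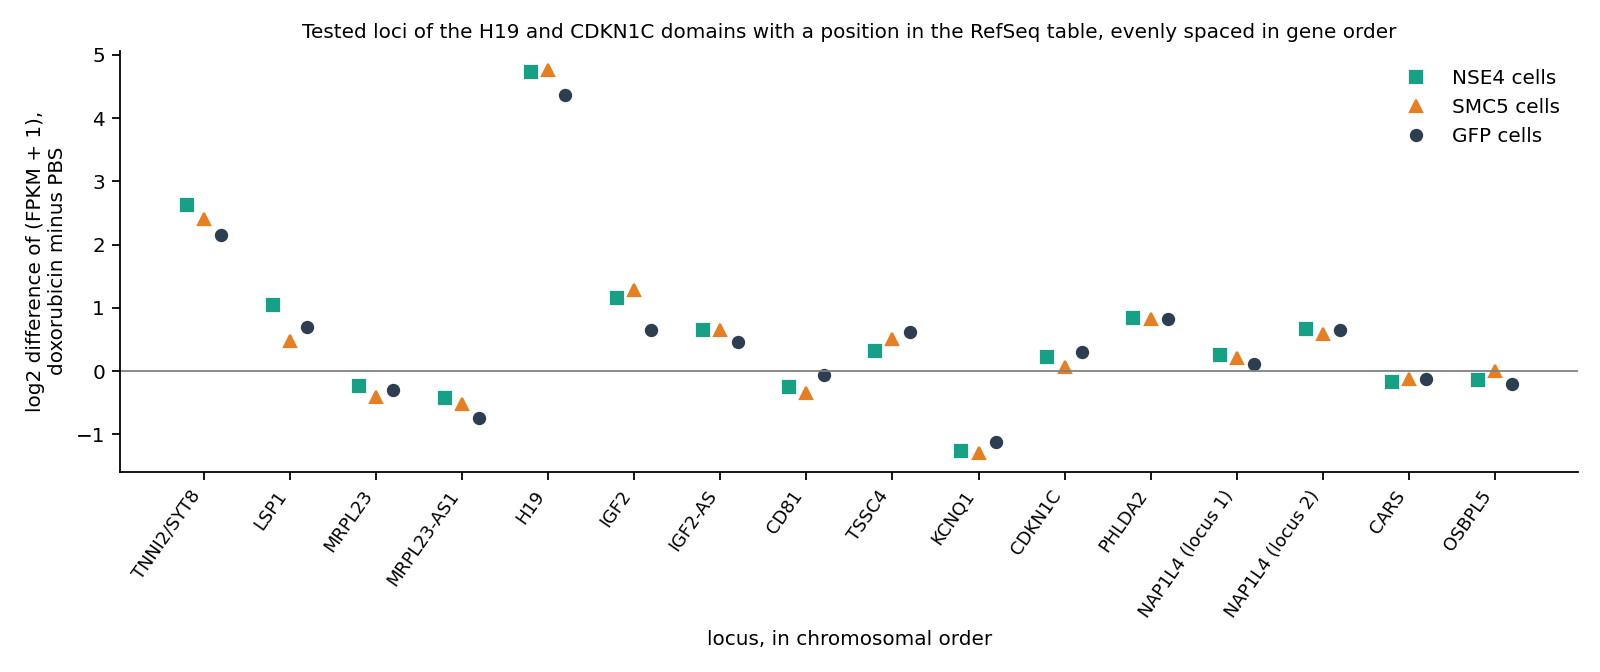
Log2 difference of FPKM + 1, doxorubicin minus PBS (y axis), of the 16 tested loci around H19 and CDKN1C matched by name to the RefSeq table, in chromosomal order (x axis, evenly spaced) in NSE4 (squares), SMC5 (triangles) and GFP cells (circles). H19 stands highest at 4.37 to 4.76, the locus of TNNI2 and SYT8 next, and KCNQ1 lowest.

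Around the other members, 4 of 13 tested neighbours rose and 5 fell in the averaged comparison (51.6% of all loci called), with a median log2 difference of −0.25, against 0.03 over all loci. The counts were 4 and 4 in NSE4 cells (30.2% of all loci called), 3 and 2 in SMC5 cells (20.9%), and 3 and 4 in GFP cells (31.1%). The 8 calls in NSE4 cells became 5 without NSE4 replicate 1, 3 without NSE4-DOX replicate 1 and 4 without NSE4-DOX replicate 2. The 5 in SMC5 cells became 2 without either SMC5 library and 3 without any GFP, GFP-DOX or NSE4-DOX library. DIO3, a thyroid hormone deiodinase of the MEG3 domain, averaged 7.20 ± 1.01 FPKM with doxorubicin and 1.31 ± 0.188 with PBS (SD, n = 5 and 6), a log2 difference of 1.80 (limma adjusted p = 3.80e-06). FIGNL1, a recombination gene near GRB10, rose by 0.91 log2, and SF3B5, a splicing factor near PLAGL1, by 0.38. PON2, a lactonase near PEG10, fell by 0.70 log2 at its main locus. DLK1 and RTL1, the other imprinted coding genes of the MEG3 domain, did not pass the filter.

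Other imprinted genes moved in both directions. Of 9 tested loci of other maternally expressed genes, 2 rose and 3 fell. KCNQ1 is among them, PPP1R9A, a neuronal actin-binding protein, fell by 0.57 log2, and TP73, a relative of p53, and ZNF597, a zinc finger gene, rose by 0.67 and 0.48. Of 9 tested loci of other paternally expressed genes, 3 rose and 1 fell. NNAT, a small membrane protein, rose by 0.95, NAP1L5 by 0.70 and IGF2-AS, an antisense transcript of IGF2, by 0.59, and SGCE, a sarcoglycan gene next to PEG10, fell by 0.46. NNAT stayed at or below 0.560 FPKM in PBS libraries and IGF2-AS at or below 0.657, so both passed the filter only through doxorubicin samples. Calls of these 2 loci thus rest on the group where they are high. With the filter at 3 FPKM, 2 paternal loci were called in the averaged comparison. The median log2 differences were −0.20 for the maternal list and 0.16 for the paternal list, against 0.03 over all loci. In single backgrounds 0 maternal loci rose and 2 fell in NSE4 cells, 0 rose and 1 fell in SMC5 cells, and 2 rose and 3 fell in GFP cells. For the paternal list 3 rose and 1 fell in NSE4 cells, 2 rose and 0 fell in SMC5 cells, and 2 rose and 1 fell in GFP cells. These counts rest on single libraries. The 5 maternal calls in GFP cells became 1 without GFP replicate 2 and 2 without GFP replicate 1 or either GFP-DOX library, and the 2 in NSE4 cells became 1 without either NSE4-DOX library. The 1 maternal call in SMC5 cells became 2 without either NSE4 library or SMC5-DOX replicate 2. The 4 paternal calls in NSE4 cells became 1 without either NSE4 library or NSE4-DOX replicate 1 and 0 without NSE4-DOX replicate 2, and the 2 in SMC5 cells became 0 without SMC5 replicate 2. KCNQ1, PPP1R9A, SGCE and IGF2-AS also count among the neighbours above. IGF2-AS and IGF2 overlap on opposite strands, and reads of the pair cannot be told apart without strand. Over all loci 51.6% were called in the averaged comparison, 30.2% in NSE4 cells, 20.9% in SMC5 cells and 31.1% in GFP cells.

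In the insulin-like growth factor pathway 1 of 13 tested loci rose and 6 fell in the averaged comparison, where 51.6% of all loci were called, with a median log2 difference of −0.15, against 0.03 over all loci. The share called in either direction is thus close to that of all loci. By direction, most calls of this list were falls, whereas 28% of all loci rose and 23.6% fell. That balance was not tested. The counts were 1 and 3 in NSE4 cells (30.2% of all loci called), 1 and 3 in SMC5 cells (20.9%), and 1 and 4 in GFP cells (31.1%). IGF2BP3 and IGF2BP2 are proteins that bind IGF2 and other messenger RNAs. IGF2BP3 averaged 23.4 ± 1.08 FPKM with doxorubicin and 52.3 ± 4.80 with PBS (SD, n = 5 and 6). IGF2BP2 averaged 27.5 ± 3.46 FPKM with doxorubicin and 54.6 ± 2.23 with PBS, and HMGA2, a chromatin protein that promotes IGF2BP2 transcription, 42.6 ± 5.07 with doxorubicin and 89.0 ± 5.80 with PBS (SD). Their log2 differences were −1.11, −0.99 and −1.01, with limma adjusted p-values of 1.45e-05, 2.99e-05 and 8.80e-06. The receptor genes IGF1R and INSR fell by 0.50 and 0.20, and the receptor substrate IRS1 fell by 0.46, while IRS2 (its locus is shared with AL162497.1) rose by 0.80. IGF2R, which clears IGF2, was not called, with 0.16 (adjusted p = 0.169).

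Among proteins that keep imprints or bind insulators, 3 of 12 tested loci rose and 3 fell in the averaged comparison, again close to the 51.6% of all loci called, with a median log2 difference of −0.020, against 0.03 over all loci. DNMT3B, a DNA methyltransferase, rose by 0.52 log2, and CTCF, the insulator protein of the H19 control region, averaged 15.2 ± 1.36 FPKM with doxorubicin and 12.04 ± 0.969 with PBS (SD, n = 5 and 6), a rise of 0.32 (limma adjusted p = 0.0147). SMCHD1, a chromatin protein related to the SMC family, fell by 0.40, and SETDB1, a histone methyltransferase whose locus is shared with AL590133.2, by 0.34. In single backgrounds 1 rose and 1 fell in NSE4 cells, 1 fell in SMC5 cells, and in GFP cells limma called 0 of the 12 (0 to 2 under the alternatives tried). Over all loci 30.2%, 20.9% and 31.1% were called. With 1 library left out these counts ranged from 0 to 2 in NSE4 cells, with 0 without NSE4-DOX replicate 1 and 1 without any other NSE4, NSE4-DOX or GFP library. They ranged from 0 to 2 in SMC5 cells, with 0 without either SMC5 library and 2 without SMC5-DOX replicate 1 or either GFP-DOX library. In GFP cells the count was 1 without GFP-DOX replicate 1. No locus of these 6 lists was called in either interaction.

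**Figure D4:**
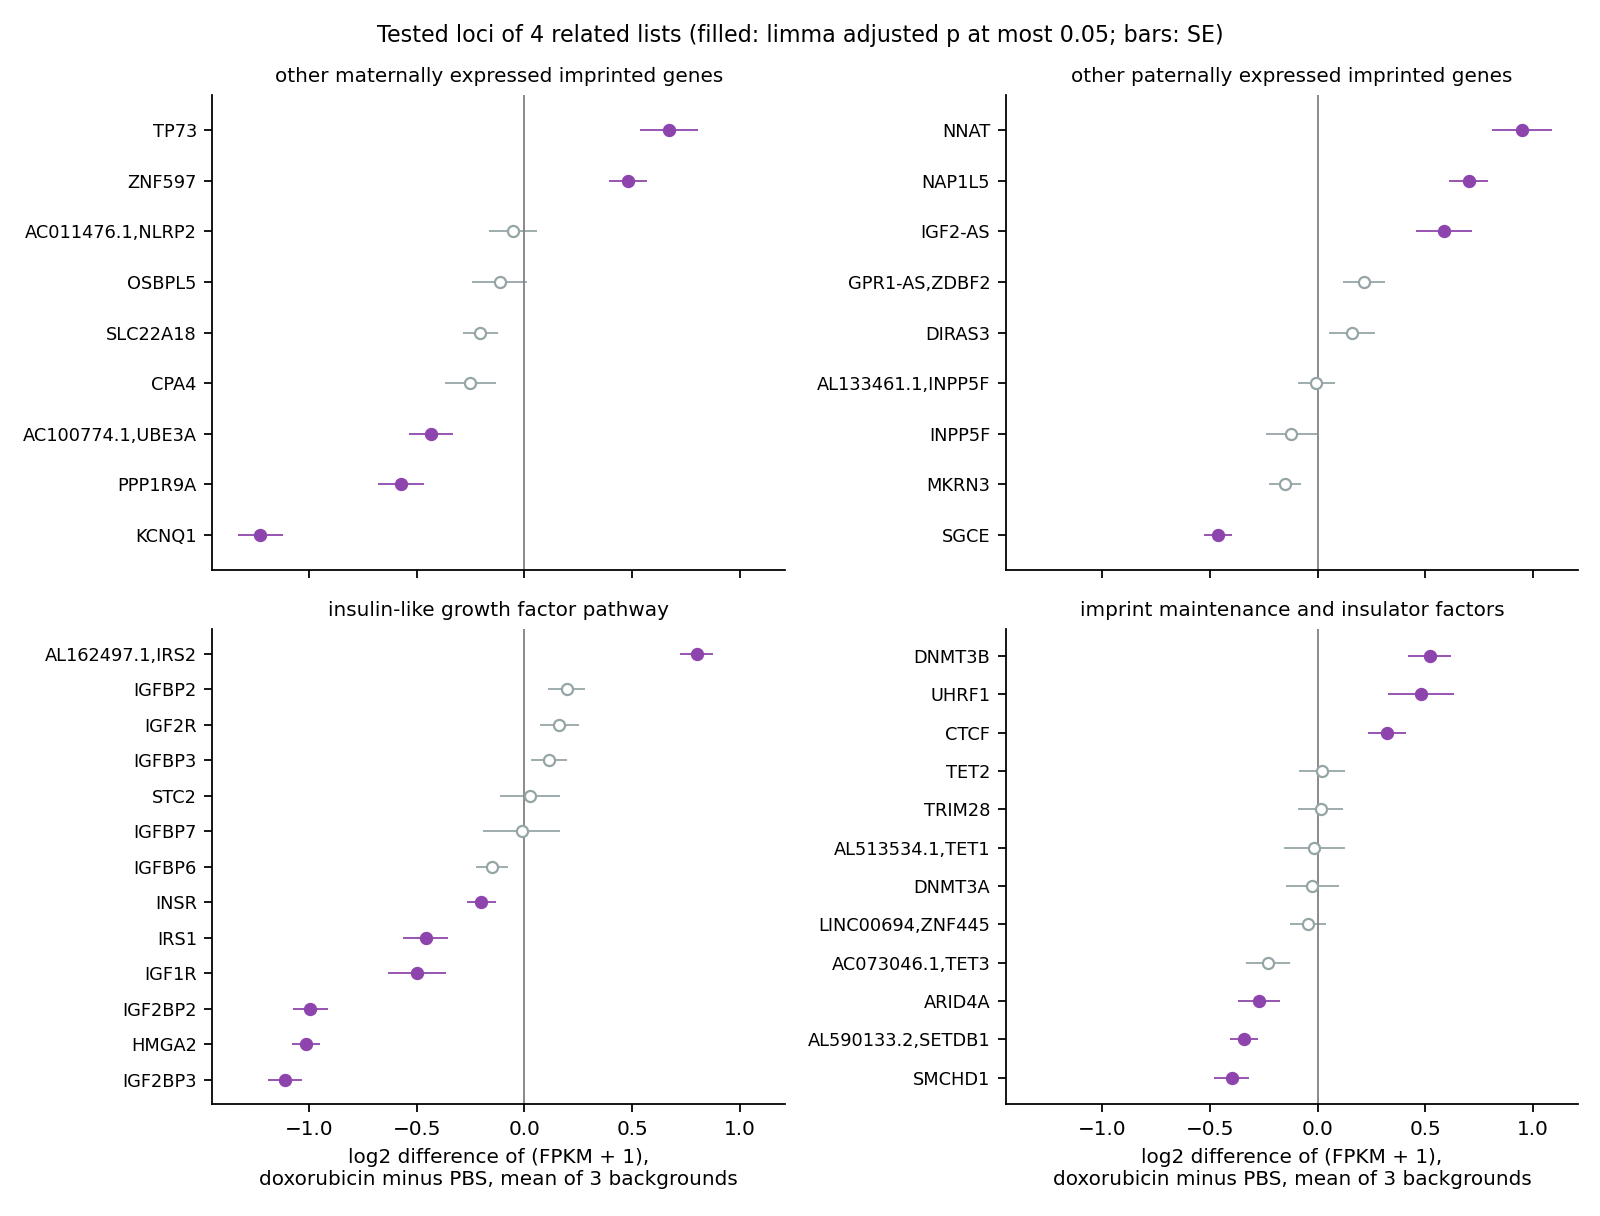
Log2 difference of FPKM + 1, doxorubicin minus PBS, averaged over the 3 backgrounds (x axis), of tested loci of 4 lists (panels, loci as rows). Filled points have a limma adjusted p of at most 0.05 and bars are SE. KCNQ1 lies lowest of the maternal list at −1.23 and NNAT highest of the paternal list at 0.95, while IGF2BP3, HMGA2 and IGF2BP2 lie lowest of the growth factor list.

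The 11 samples fall into 2 treatment clusters, and an r between loci across them reflects that split. Of 12611 loci compared, 110 had a Pearson r above 0.99 with H19 and 1811 had an r above 0.9. The 5 most like it were CA2 (r = 0.999), a carbonic anhydrase, NATD1 (0.998), MORC4 (0.998), RAD51C (0.998), a recombination protein, and CTSV (0.998), a lysosomal protease. CA2 read 129 to 144 FPKM with doxorubicin and 22.9 to 25.7 with PBS, a ratio of means of 5.68. The ratios of the 5 were 3.87 to 5.79, against 29.7 for H19. Of the members, PHLDA2 had an r of 0.978 with H19, IGF2 0.966 and MEST −0.960. These values are a description over samples of the same line and the same 2 treatments.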

How the data were processed

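The deposited table holds FPKM values of 57908 loci in 12 columns, made by the authors with TopHat and Cufflinks, per the submitters' processing notes. Versions, genome build and annotation are not given in the sources used here. All 12 columns were used, and no column of another sample was present. FPKM corrects for library size and length, so a few very abundant transcripts can shift all other values, and exact read counts are lost. Depth was therefore only estimated, at 13.5 to 20.1 M fragments.

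Loci were found by splitting locus names at commas. The near-identical SMC5-DOX columns were averaged. Loci with at least 1 FPKM in at least 2 of 11 samples (15833) were tested as log2(FPKM + 1) with limma 3.58.1 in R 4.3.3, with 6 groups in 1 fit, a trended prior variance and 5 residual degrees of freedom, and checked on simulated data. Benjamini-Hochberg adjustment ran over all loci, separately for each of 10 comparisons, with a threshold of 0.05. SMC5-DOX, a lone sample, is assumed to vary like the other groups. Alternatives were leaving out each library, a replicate block, 12 separate columns, compared groups alone, a pseudocount of 0.1, 2 filters and 2 scalings, and, after seeing the data, no filter with a pseudocount of 0.1.

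The members, gene lists and tests were chosen with earlier results of these data known. All members are named, and from each list up to 4 loci of smallest p among those called in the averaged comparison, plus the 5 loci most like H19 in Pearson r. IGF1R, INSR, IRS1, IGF2R, MRPL23, LSP1, DLK1, RTL1, COL1A1 and PDGFRB were named after their values were seen. Loci that also name a coding gene outside the list were left out of it, a choice made after seeing the table. Sequences and transcript lengths came from RefSeq (GRCh38.p14) and GENCODE 29. Figures were drawn with matplotlib 3.10.9, and tables made with numpy 2.4.6 and pandas 2.3.3 under Python 3.11.15.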

Additional observations from a re-analysis of the deposited data

How the results depend on the processing

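Of the 9 members other than H19, 4 were called in the averaged doxorubicin comparison, and 4 or 5 under the 20 alternatives run. IGF2, PHLDA2 and MEST kept their averaged calls in all of them, as did GRB10. When each library was left out in turn, the count stayed at 4 to 5 in the averaged comparison, 3 to 5 in GFP cells, 3 to 4 in NSE4 cells, 3 to 4 in SMC5 cells, and 0 in the plasmid comparisons and interactions. With only the compared groups in the fit, 0 members were called in SMC5 cells, where 3 samples leave 1 residual degree of freedom, with adjusted p of 0.0997 for IGF2, 0.105 for MEST, 0.123 for PHLDA2 and 0.132 for GRB10. The call of GRB10 was lost in GFP cells under 3 settings, in NSE4 cells under 4 and in SMC5 cells under 7, with adjusted p of up to 0.133, and the cause was not tested. Alternatives were run for the doxorubicin differences of the members above the filter and for the plasmid differences of H19 alone. Among these, the differences that changed sign, none of them called in any setting, were H19 for the NSE4 plasmid with PBS (0.092 without NSE4 replicate 1, and −0.40 to 0.092 over the libraries left out) and for the SMC5 plasmid with doxorubicin (−0.042 without SMC5-DOX replicate 2, range −0.042 to 0.18). CDKN1C in SMC5 cells had −0.040 without SMC5 replicate 1 and −0.056 without SMC5-DOX replicate 2 (range −0.056 to 0.17), and PEG10 in NSE4 cells had 0.015 without NSE4 replicate 1 and 0.041 without NSE4-DOX replicate 1 (range −0.37 to 0.041). The log2 difference of H19 averaged over backgrounds ranged from 4.54 to 4.87. Same-numbered libraries did not deviate together locus by locus (r of replicate differences −0.04 to 0.07), but this r leaves out a shift common to all loci. The median log2 ratio to the mean sample was −0.056 to −0.031 in replicate 1 libraries and −0.002 to 0.062 in replicate 2 libraries. It was lower in replicate 1 of each group other than SMC5-DOX, whose columns were averaged. Whether the numbers pair the libraries is therefore not settled. With the replicate block 4 members were called in each doxorubicin comparison, as without it. KCNQ1OT1 and MEG3, both under 1 FPKM, were tested only without the filter. Over all settings, the number of list loci called in the averaged comparison ranged from 4 to 6 (maternal), 2 to 5 (paternal), 6 to 12 (neighbours of H19 and CDKN1C), 7 to 11 (other neighbours), 6 to 8 (growth factor) and 4 to 7 (imprint factors). Counts in single backgrounds moved more. With only the compared groups, 0 loci of any list were called in SMC5 cells, and with 12 separate columns 7 neighbours of H19 and CDKN1C were.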
